A study of Caenorhabditis elegans with 2 samples.

Results

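The genes described here are 41 genes of body wall muscle in the nematode Caenorhabditis elegans, out of 19973 protein-coding genes on the nuclear chromosomes, taken by name from a list of muscle genes. Their measure is the binding of DMD-6, a protein of the DM-domain family of DNA-binding factors, by ChIP-seq, in which DNA bound by a protein is precipitated with an antibody and sequenced. A gene was counted as having a promoter peak when a peak summit lay between 1000 bp upstream and 200 bp downstream of any of its annotated start sites, and as having an intronic peak when a summit lay inside the gene in none of its exons. By these rules 11 of the 41 genes had a promoter peak, 6 had an intronic peak, 4 of these had both, and 28 had neither.

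All samples came from strain RJP5356, which carries a CRISPR insertion of GFP, an auxin-inducible degron (AID), a TEV site and 3xFLAG in the dmd-6 gene on chromosome IV. The animals had been arrested by starvation as newly hatched L1 larvae after bleaching and were taken whole as L4 larvae at 48 hours. They make up 1 group of 2 biological replicates, and the labels give no sex. A control experiment that the labels name was not used here. The precipitation used an antibody against GFP, so the values are those of the tagged protein. Whole larvae hold hypodermis, gut, neurons and pharynx beside muscle, and the cell type in which a site was bound was not measured. No test between conditions can be made, and expression of the genes was not analysed here.

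Body wall muscle of the worm is obliquely striated, with thick filaments of myosin and paramyosin anchored at M-lines and thin filaments of actin, tropomyosin and troponin anchored at dense bodies. The dense bodies and M-lines are held by integrins to perlecan in the basement membrane, and through it and the hypodermis to the cuticle. Many of these genes were found by mutations that paralyse the animal (unc genes) or arrest the embryo at the stage of elongation (pat genes). DM-domain proteins are known chiefly for their part in sexual differentiation.

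The sequences at 5 promoter summits are printed as examples for the replicate comparison. The sites of unc-23, zak-1 and act-2 were called in both replicates and in the joint list, that of act-1 only in the joint list, and that of unc-112 only in the replicates. The site of cpn-3, also called in both replicates and in the joint list, is not printed. For unc-112 the summit used is that of replicate 1. Each is the reference sequence of WBcel235 (the assembly ce11) within 50 bp of the summit, 5′ to 3′ on the strand of the gene, and bases of an annotated UTR are left out. Capitals mark matches on either strand to 5 words searched, namely ACAATGT for the core of DM-domain sites, CAGCTG for the E-box of MyoD-like factors, CACGTG for the E-box of Myc-like factors, TGATAA for GATA factors and the repeat word GAGAGA.
unc-23 (chrV:8936280-8936358, plus strand): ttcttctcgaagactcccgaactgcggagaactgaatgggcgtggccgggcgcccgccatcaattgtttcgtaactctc
zak-1 (chrIII:6857630-6857730, minus strand): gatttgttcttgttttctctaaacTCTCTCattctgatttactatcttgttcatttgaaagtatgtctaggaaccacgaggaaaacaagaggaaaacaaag
act-2 (chrV:11078446-11078546, minus strand): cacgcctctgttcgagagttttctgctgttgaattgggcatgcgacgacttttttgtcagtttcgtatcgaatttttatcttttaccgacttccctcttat
act-1 (chrV:11080808-11080908, plus strand): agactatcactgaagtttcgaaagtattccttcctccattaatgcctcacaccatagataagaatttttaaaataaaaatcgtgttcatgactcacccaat
unc-112 (chrV:14696921-14697021, minus strand): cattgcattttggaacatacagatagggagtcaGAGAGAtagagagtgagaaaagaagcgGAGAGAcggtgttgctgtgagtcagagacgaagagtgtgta

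These sequences share none of the first 4 words. The zak-1 sequence holds GAGAGA 1 time, on its other strand, and the unc-112 sequence holds it at 2 places, while the unc-23, act-2 and act-1 sequences hold none of the 5 words. Over the 21 summits in promoters or introns of muscle genes, the DM-domain word was found in 0 windows against 1.87% of the windows at all 7338 summits, and the MyoD-like word in 0 against 3.35%. CACGTG lay in 2 of the 21 windows (9.52%) against 6.88%, TGATAA in 5 (23.8%) against 31.4%, and GAGAGA in 3 (14.3%, at lev-11, mup-2 and zak-1) against 19.4%. The GC content of the 21 windows ran from 33.7% to 64.4% with a median of 43.6%, and the median over all summits was 41.6%. With 21 windows and words this rare, the counts are given as a description.

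The main list holds 7338 peaks that the authors called on both replicates together and passed at an irreproducible discovery rate (IDR) of at most 0.01, a −log10 IDR of 2. Replicate 1 alone has 6533 such peaks and replicate 2 alone has 4653. The signal is the authors' value for a peak, and its scale differs from list to list, so signals are compared only within a list and their ranks are counted from the strongest peak. The number of reads behind a peak is unknown.

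In the main list, 11 of 41 muscle genes (26.8%, exact 95% binomial interval 14.2% to 42.9%) had a promoter peak, and the background share, over all protein-coding genes, was 19.1%. The interval includes the background share. The genes were unc-22, unc-23, act-1, act-2, act-4, lev-11, mup-2, unc-60, cpn-3, unc-52 and zak-1. When a main peak also had to overlap a thresholded peak of each replicate by at least 1 bp, 4 genes were left, unc-23, act-2, cpn-3 and zak-1. This is 9.76% of the 41 against a background of 12%. The share of muscle genes was thus above the background in the joint list and below it among peaks found in both replicates, and in each case the interval for the muscle genes included the background.

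**Figure D1:**
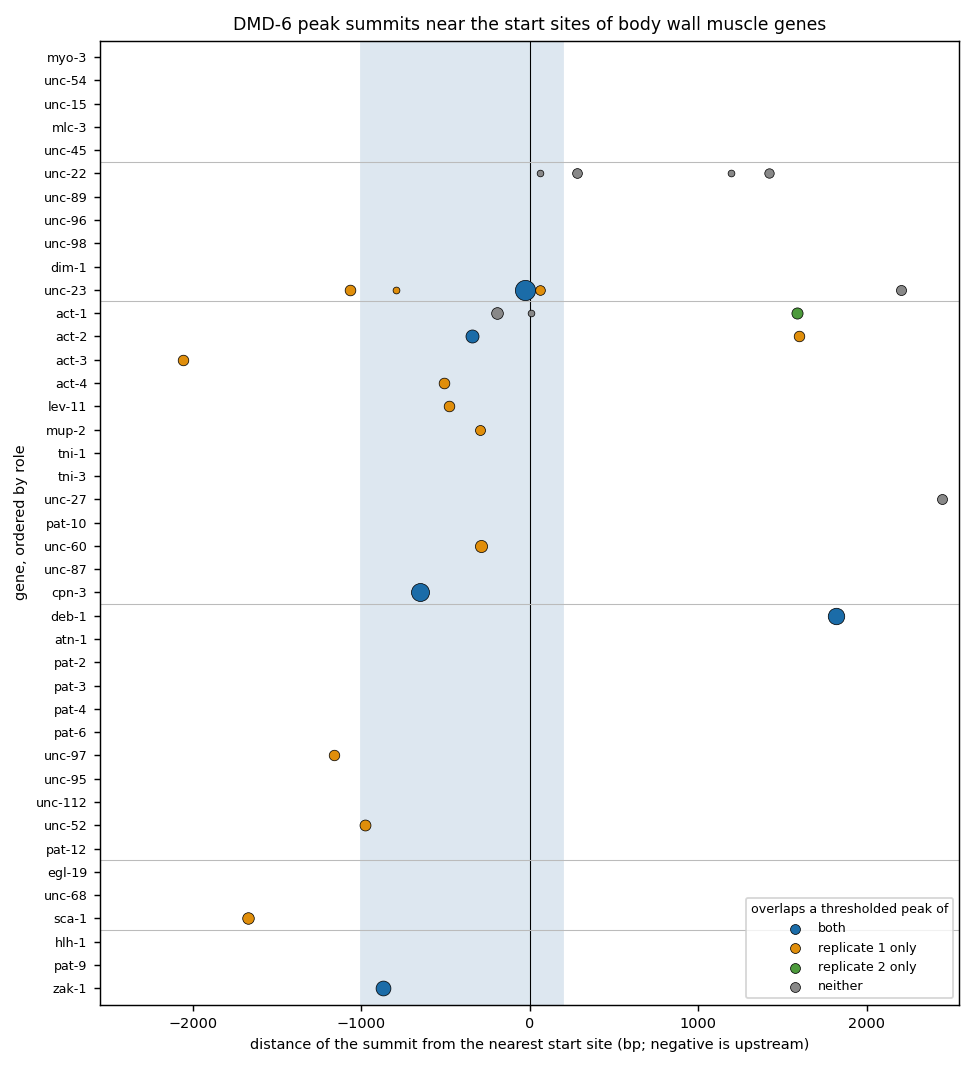
Distance in bp of each main-list summit from the nearest start site of the 41 genes, grouped by role from thick filament (top) to regulators (bottom), for summits within 2500 bp; the shaded band is the promoter window, the area of a point grows with signal, and the colour gives the replicates whose thresholded peak it overlaps. The 5 thick filament genes have no point, and the points in the band lie mostly in the thin filament block.

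The replicates differed in how many muscle genes they showed. Replicate 1 alone gave a promoter peak to 10 genes (24.4%) over a background of 18.2%, and replicate 2 alone to 5 genes (12.2%) over a background of 13.0%. The conservative list of the authors, also called on both replicates, gave 8 genes (19.5%) over 17.7%. These were unc-23, act-1, act-2, act-4, unc-60, cpn-3, unc-52 and zak-1. Among the 1000 peaks of highest signal, 2 muscle genes (unc-23 and cpn-3) had a promoter summit, and the background there was 3.17%. In the ranked list from which the main list was drawn, which has no IDR threshold and 37765 entries, 24 of the 41 genes (58.5%, 42.1% to 73.7%) had a promoter summit against 40.6% of all genes. That is the only list shown here in which the interval for promoters lay wholly above the background, and most of its entries are below the authors' threshold. Genes with many start sites also have more window to hold an entry. In that list unc-52, with 8 start sites, had 8 entries, pat-12, with 12, had 5, and lev-11, with 11, had 4. The median number of start sites was 1 for muscle genes and for all genes. The shares were not adjusted for window length.

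**Figure D2:**
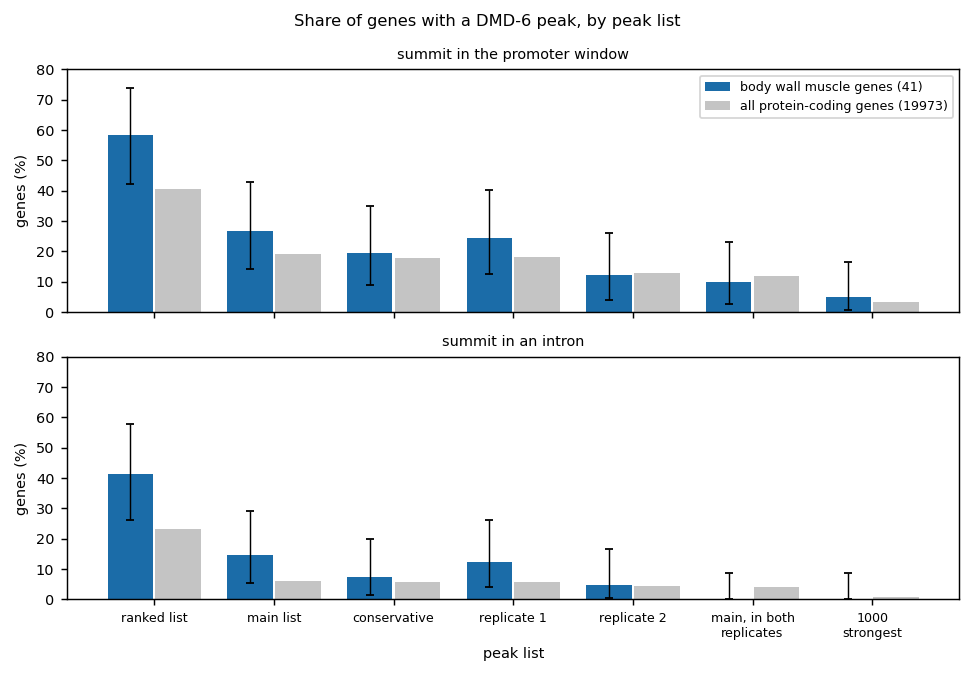
Share of genes (%) with a summit in a promoter window (top) or an intron (bottom) in 7 peak lists, for the 41 muscle genes (blue, with exact 95% binomial intervals) and all 19973 protein-coding genes (grey). In promoters the muscle share goes from 58.5% in the ranked list to 4.88% among the 1000 strongest peaks, and the grey bars fall with it.

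The peaks at muscle genes lay mostly in the lower part of the list. The strongest promoter summit of each of the 11 genes had a median signal of 119.7 (range 6.08 to 451) and a median rank of 4344 of 7338. For all 3823 genes with a promoter summit the median signal was 159 and the median rank 3156. Of the 11 genes, 4 (36.4%) had their strongest summit in both replicates, against 62.3% of the 3823. Counting all 21 promoter and intronic summits, 4 overlapped both replicates, 9 (42.9%) replicate 1 only, 1 (4.76%) replicate 2 only and 7 (33.3%) neither. Over the main list the shares in the same order were 58.5%, 26.1%, 4.02% and 11.4%. Of the 21 summits, 5 belong to peaks that overlap a stronger main peak, which is a second summit called beside a larger one, and these 5 have signals under 40. In the main list 421 of 7338 peaks overlap a stronger one. The 5 are counted in the support shares above, and at unc-22, unc-89 and act-1 so is the stronger neighbour. The 21 summits are therefore not 21 separate sites. These comparisons are of counts and medians within a list and were not tested.

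The 5 thick filament genes had no promoter or intronic peak. They are myo-3 and unc-54, the heavy chains of myosin A and myosin B, unc-15, paramyosin, mlc-3, a myosin essential light chain, and unc-45, the chaperone that folds myosin heads. Their nearest summits lay 7676 to 21652 bp from a start site. For unc-54 this summit was 95 bp past the 3′ end of the gene, with a main-list signal of 104 and replicate signals of 53.6 and 48.1, in the promoter window of its neighbour aex-5. For unc-45 it was 190 bp past the 3′ end, with a main-list signal of 243 and replicate signals of 131 and 116. Both sites were therefore called in each replicate and lie behind the genes and not before them. In the ranked list myo-3 had a promoter entry with a −log10 IDR of 1.065 and a signal of 15.96, below the threshold, and unc-54 and unc-45 had no promoter entry in any list.

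The strongest promoter peak of the 41 genes was that of unc-23, a BAG-domain co-chaperone without which muscle detaches in the head. Its summit lay at −29 bp from a start site, negative values being upstream (chrV:8936165-8936508), and its main-list signal was 451 (rank 446). The signal was 256 in replicate 1 and 192 in replicate 2. The replicate summits, at −27 and −29 bp, nearly coincide, and the −log10 IDR was 5 in each. A pair of weaker summits in its windows, with main signals of 67.3 and 8.79, overlapped peaks of replicate 1 only, and a further peak of signal 91.3 lay at −1067 bp, just outside the window.

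The other genes of this group were listed under giant and M-line proteins, a grouping made for this report that need not describe every member. unc-22, the giant kinase twitchin, had 5 summits at its 5′ end or in its introns, and none overlapped both replicates. The summit that put it among the promoter peaks had a signal of 6.08, rank 7266 and a −log10 IDR of 2.01, and its interval overlaps a stronger peak of signal 68.4 whose summit is 279 bp downstream of the start site, 79 bp outside the window. Its strongest summit, of signal 105.4, was intronic and was called in replicate 2 (53.9) but not in replicate 1, whose ranked list has 52.6 there at a −log10 IDR of 1.93. That summit lies inside a tRNA gene. unc-89, the giant protein obscurin, had 2 intronic summits of signals 91.8 and 5.90 in its 3′ part, the stronger one called in replicate 1 (70.1) only. Both lie in the promoter window of clec-89, at −617 and −821 bp from its start site. unc-96, unc-98 and dim-1 had none, with the nearest summit of unc-98 at −2560 bp (signal 317, both replicates).

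Of the 13 thin filament genes, 7 (53.8%) had a promoter peak, over the background of 19.1%. This was the largest count of any role, in the role with the most genes. Of the 13, 2 (act-2 and cpn-3) had it in both replicates, where the background was 12%. Differences between roles were not tested. cpn-3, a calponin, had a summit at −652 bp (chrI:3987180-3987380) with a main-list signal of 348 (rank 830). Its signal was 156 in replicate 1, at rank 1541, and 189.8 in replicate 2, at rank 429, so replicate 2 placed it higher among its own peaks. unc-60, an ADF/cofilin that severs actin filaments, had a summit at −286 bp (chrV:1474628-1474971) with a main signal of 133 and 87.9 in replicate 1. In replicate 2 its ranked entry had a signal of 41.2 and a −log10 IDR of 1.89, just under the threshold. The same summit is at −286 bp from the start site of F53E2.2, so the peak cannot be given to either gene.

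The peaks of act-4, lev-11 and mup-2 were called in replicate 1 and not in replicate 2. Among them, only that of act-4 was in the conservative list. act-4, the actin gene on chromosome X, had a main signal of 91.2 (59.8 in replicate 1, and 34.7 with a −log10 IDR of 1.38 in the ranked list of replicate 2). lev-11, tropomyosin, had 89.9 (65.5 in replicate 1, and 17.8 at 0.274 in replicate 2). mup-2, troponin T, had 74.0 (53.9 in replicate 1, and 25.5 at 0.659 in replicate 2). The summits of act-4 and lev-11 are in front of internal start sites, at −509 and −477 bp, and lie in introns of the same genes. The 6 thin filament genes with no promoter peak were act-3, the troponin I genes tni-1, tni-3 and unc-27, the troponin C gene pat-10 and unc-87, a calponin-repeat protein that bundles actin. Their nearest summits were 2060 to 12432 bp away. Of the troponin genes, then, troponin T had a peak and the 3 genes of troponin I and that of troponin C did not.

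**Figure D3:**
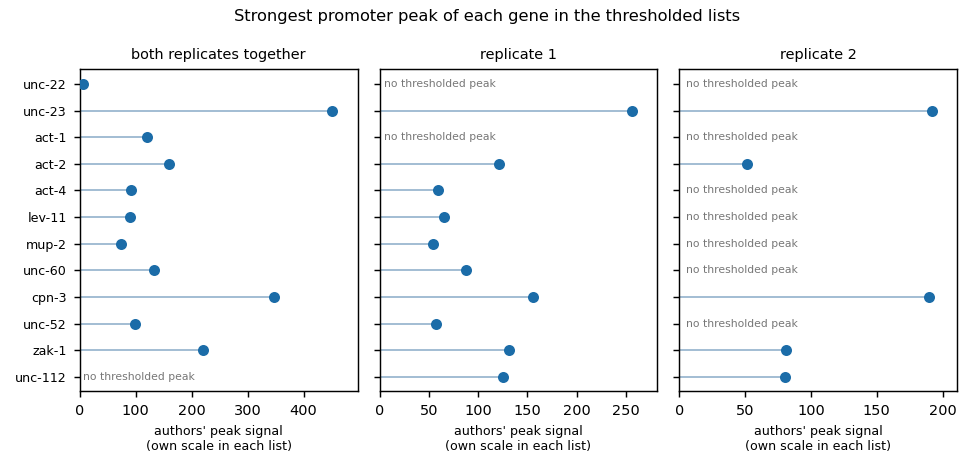
The authors' signal of the strongest promoter peak in the thresholded lists of both replicates together (left), replicate 1 (middle) and replicate 2 (right) for the 11 genes and unc-112, each panel on its own scale. unc-23, act-2, cpn-3 and zak-1 have a value in all 3 panels, and unc-112 has 125 and 79.97 in the replicates and no peak in the joint list.

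Of the 4 muscle actin genes, act-1, act-2 and act-3 lie together on chromosome V, and their peaks differed from each other in replicate support. act-2 had a summit at −342 bp (chrV:11078324-11078667) with a main-list signal of 160.2 (rank 3132), and its signal was 122 in replicate 1 and 51.3 in replicate 2. act-1, which is read in the opposite direction, had a summit at −194 bp (chrV:11080686-11081029) of main signal 119.7 and −log10 IDR 3.62. It was in the conservative list too, but reached the threshold in neither replicate: the ranked entries had signals of 57.9 with a −log10 IDR of 1.59 in replicate 1 and 60.8 with 0.307 in replicate 2. act-3 had no promoter peak, and its nearest upstream summit, at −2060 bp, had a signal of 88.8 and was called in replicate 1 only. A peak 222 bp past the 3′ end of act-1 had a signal of 104.6 and was called in replicate 2 only. The strongest peaks around the cluster lie past the 3′ end of act-3, at 2208 and 1131 bp, with main signals of 405 and 214 and calls in both replicates. The one of signal 405 is in the promoter window of the neighbouring gene T04C12.8. The nearly identical sequences of the actin genes can affect how reads are placed in their coding exons, and how such reads were handled was not given in the sources used here.

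**Figure D4:**
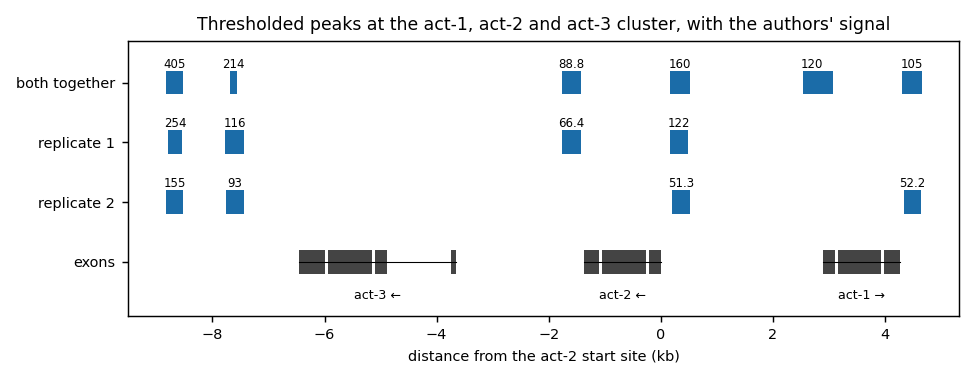
Thresholded peaks (blue boxes, labelled with the authors' signal) of both replicates together, replicate 1 and replicate 2 along the act-3, act-2 and act-1 genes, by distance in kb from the act-2 start site; grey boxes are exons and arrows give the direction of reading. The box left of act-1 is a pair of overlapping peaks, of which the stronger is labelled, and it has no counterpart in the replicate rows, whereas the peak before act-2 is in all 3.

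Of the 11 attachment genes, 1 (9.09%) had a promoter peak in the main list, over the background of 19.1%. unc-52, the basement membrane protein perlecan, had a summit at −979 bp from an internal start site, in an intron and 21 bp inside the edge of the window. Its main signal was 98.5, with 57.5 in replicate 1 and a ranked entry of 36.1 at a −log10 IDR of 1.105 in replicate 2. The other attachment genes encode the integrins pat-2 and pat-3, vinculin (deb-1), alpha-actinin (atn-1), the integrin-linked kinase and its partners (pat-4, pat-6, unc-97 and unc-112), the LIM protein unc-95, and pat-12, which acts in the hypodermis. Their nearest summits lay 1164 to 37369 bp from a start site. The nearest to a window was that of unc-97 at −1164 bp (signal 87.6, replicate 1 only). A peak of signal 285, called in both replicates (168 and 120.1), lay 252 bp past the 3′ end of deb-1 and in the promoter window of the neighbouring gene rps-4. atn-1 had a promoter entry in the ranked list with a −log10 IDR of 1.32.

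unc-112, the worm kindlin, was an exception to the joint lists. Replicate 1 had a peak with its summit at −317 bp (chrV:14696803-14697138; signal 125, rank 2243, −log10 IDR 4.81), and replicate 2 had one at −359 bp (chrV:14696855-14697170; signal 79.97, rank 2313, −log10 IDR 4.36). The peaks overlap, and both pass the threshold by a wide margin. No entry of the main, conservative or ranked lists called on both replicates overlaps them. Of 4238 peaks of replicate 1 that overlap a peak of replicate 2, 42 (0.991%) have no overlap in the main list, and 14 (0.330%) have none in the ranked joint lists either. The reason for the missing entry was not given in the sources used here. Counted with the 4 genes above, 5 muscle genes (12.2%) had thresholded promoter peaks in both replicates. They are the same 5 that had a promoter peak in replicate 2, where the background was 13.0%. The share of all genes under this rule, without the joint list, was not counted. For main peaks overlapping both replicates the background was 12%.

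Among the calcium handling genes, neither egl-19, the L-type calcium channel, nor sca-1, the calcium pump of the sarcoplasmic reticulum, had a promoter or intronic peak. The summit nearest to a start site of sca-1 was at −1670 bp (signal 116, replicate 1 only). A peak 498 bp past its 3′ end had a signal of 92.2 and was called in both replicates (46.9 and 40.8). unc-68, the ryanodine receptor that releases stored calcium, had an intronic summit of signal 76.7, which was called in neither replicate and lies 4 bp from a tRNA gene. In the main list, 344 of 7338 summits (4.69%) lie within 200 bp of a tRNA gene. Of the regulators, hlh-1, the worm MyoD, and pat-9, a zinc finger protein of muscle, had none, with the nearest summits at −10669 and 13086 bp. zak-1, named for the ZAK family of kinases, had a summit at −871 bp (chrIII:6857508-6857851) with a main-list signal of 221 (rank 1972). Its signal was 131 in replicate 1 and 80.8 in replicate 2, a call in each.

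Introns of 6 muscle genes held a summit (14.6%, 5.57% to 29.2%), against 6.13% of all genes, which is within the interval. They were unc-22 with 5 summits, unc-89 with 2, and act-4, lev-11, unc-52 and unc-68 with 1 each. None of these summits overlapped both replicates, so the count of genes with such a summit in both was 0 of 41, which allows a share of up to 8.6%, and the background was 4.07%. Muscle genes have long introns: their median intronic length was 2230 bp against 722 bp over all genes, and unc-89 holds 29242 bp, unc-52 22883 bp and unc-22 14943 bp. Per 10 kb of intron the muscle genes had 0.595 summits and all genes 0.578, so the densities were close when every summit was counted. Of the 11 muscle summits, 5 are in unc-22, and some at unc-22 (8.14 and 6.08) and unc-89 (5.90) are second summits beside a stronger peak. Neither density was recomputed without second summits. Of the 6 genes with the most intronic sequence, unc-89, unc-52, unc-22 and unc-68 (11161 bp) held summits, and pat-12 (18586 bp) and unc-96 (8485 bp) held none. In the ranked list without a threshold, 17 of the 41 genes (41.5%) had an intronic entry over a background of 23.3%. Per 10 kb of promoter window the densities were 1.60 for muscle genes and 1.44 for all genes. The 14 muscle summits counted there include second summits beside a stronger peak, at unc-22, unc-23 and act-1, with signals of 6.08, 8.79 and 6.54. This density was not recomputed without second summits either, so its direction is not established.

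**Figure D5:**
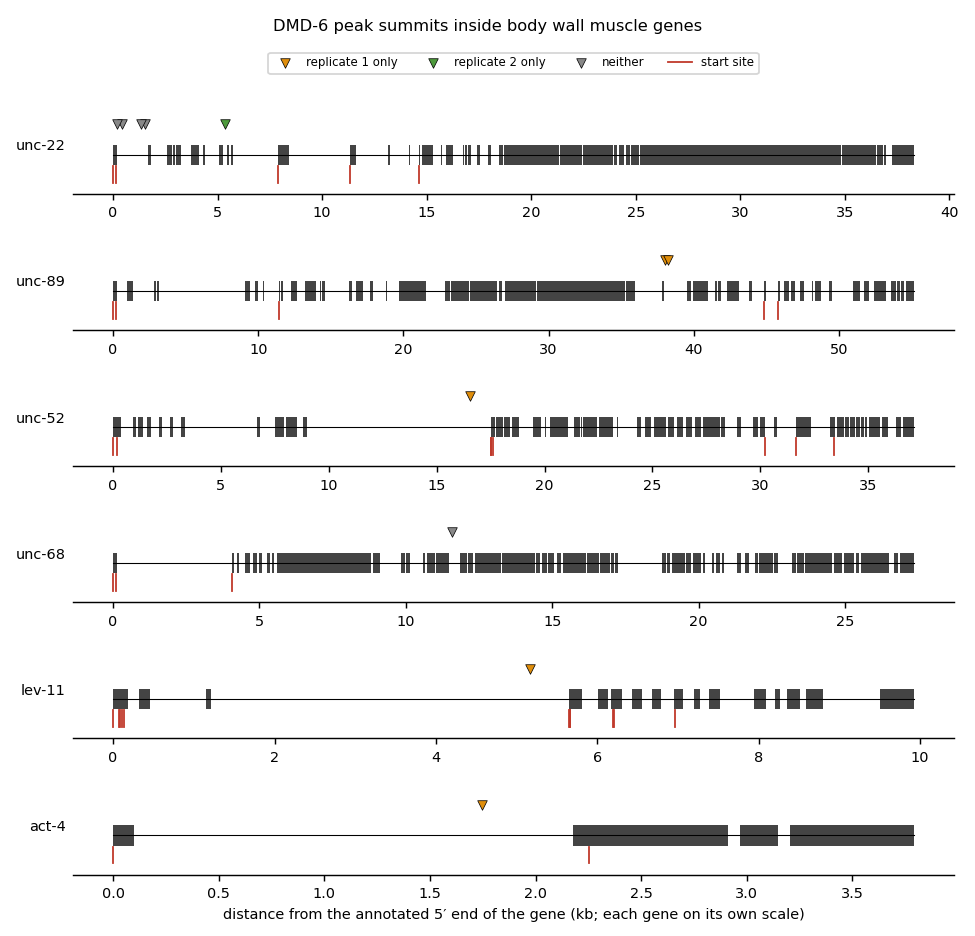
The 6 genes with intronic summits, each drawn 5′ to 3′ in kb from its own 5′ end; dark boxes are exons, red ticks are annotated start sites and triangles are main-list summits coloured by replicate support. Summits of act-4, lev-11 and unc-52 sit in long introns before internal start sites, those of unc-22 near its 5′ end, and no triangle has the support of both replicates.

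Several peaks of muscle genes depended on internal start sites. With only the outermost start site of each gene, 8 of 41 genes (19.5%) kept a promoter peak over a background of 17.4%, and act-4, lev-11 and unc-52 did not. A wider count of summits anywhere in a gene or within 2500 bp of it gave 24 of 41 genes (58.5%) over 37.4%, but the muscle genes span a median of 4800 bp and all genes 2027 bp. For the 30 genes without a promoter peak, the distance from a start site to the nearest summit had a median of 7348 bp and a range of 1164 to 37369 bp, and the median for other coding genes without one was 8812 bp.

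By chromosome, 2 of 9 muscle genes on X (act-4 and mup-2, 22.2%) had a promoter peak over a background of 24.9%, and 9 of 32 on the autosomes (28.1%) over 18.2%.

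Outside the main list the remaining genes fell into 3 sets. A promoter entry in the ranked joint list was found for 13 genes without a main peak, among them myo-3, unc-15, atn-1, pat-3 and pat-4. A further 9, unc-112 and hlh-1 among them, had one only in a replicate list or in the other ranked joint list. Of these, unc-112 passed the threshold in both replicates, as given above. The last 8 had no promoter entry in any list, thresholded or not: unc-54, unc-45, unc-96, dim-1, unc-87, pat-2, unc-95 and egl-19. The shares of all genes in these 3 sets are not given here, so the set sizes are a description. Of all genes, 40.6% had a promoter entry in the ranked joint list, so lacking one is common.

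Other genes of muscle and its surroundings were taken from lists drawn up from general knowledge. Of 22 further sarcomere genes 6 (27.3%) had a promoter peak, and 2 of them had it in both replicates. These were cap-2, an actin capping protein, with a signal of 483 (228 and 252 in the replicates) and lim-8, a LIM-domain protein, with 152 (97.2 and 57.9). The tropomodulin gene unc-94 had 118.5, called in replicate 1 only (72.9). Of 9 genes of the dystrophin complex 2 had one, sgca-1 with 182 and stn-2 with 137, both in both replicates. Of 16 receptor and channel genes 2 had one, lev-8 with 64.6 and slo-2 with 20.8, neither in both replicates. Of 7 muscle transcription factors 1 had one, mef-2 with 104 in replicate 1 only, and of 12 basement membrane genes 3, with nid-1 at 238 in both replicates, fbl-1 at 141 and dgn-1 at 74.4.

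Tissues next to body wall muscle were listed as well. Of 8 hypodermal attachment genes 4 had a promoter peak, with let-805 at 141 (86.0 and 54.96 in the replicates), vab-10 at 126 and vab-19 at 95.1, the latter pair in replicate 1 only. Of 9 genes of pharyngeal muscle 1 had one, the organ selector pha-4 at 181, in replicate 1 only. Over all 83 genes in these lists 19 (22.9%) had a promoter peak and 6 had it in both replicates, against the backgrounds of 19.1% and 12% given above. An intronic summit was found in 11 of the 83, where the background was 6.13%, with no adjustment for intron length.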

How the data were processed

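ChIP-seq peaks of GFP-tagged DMD-6 were analysed from 8 lists on assembly ce11, per the labels. The thresholded and ranked lists were made by the authors from each replicate and from both together; no aligner, peak caller or version was given in the sources used here. The deposited score (at least 830 in thresholded lists) was not used for ranking. The deposited signal is the authors' value per peak, with a formula not given. For ranked entries the deposited −log10 IDR (global) was read. The main list holds 7338 of 7383 entries of a ranked list with a −log10 IDR of at least 2. Summits are the start plus the offset. Depth is unknown, so intervals (exact binomial, 95%) cover counting of genes only.

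Start sites, exons and tRNA genes came from Ensembl release 115 and sequence from the RefSeq copy of WBcel235. Summits were assigned with Python 3.11.15, scipy 1.17.1 and numpy 2.4.6. On simulated data, 200 of 200 promoter and 200 of 200 intronic summits were found. The 41 genes and all lists, words and rules were chosen with earlier results of these data known, so no test was made. All genes with a main-list promoter or intronic summit are named, and up to 3 of each other list with the strongest peak; other genes were named after their values were seen.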

Additional observations from a re-analysis of the deposited data

How the results depend on the processing

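The count of 11 muscle genes with a promoter peak was 8 in the conservative list, and 5 to 10 with either replicate left out, the lower without replicate 1. It was 4 for peaks overlapping both replicates by at least 1 bp, 2 for the 1000 strongest peaks and 24 in the ranked list, with the backgrounds given above. When the overlap covered at least 0.5 of the main peak it was 3 (7.32%, zak-1 was lost) over a background of 11.3%. A window from 500 bp upstream to 100 bp downstream gave 7; one from 2000 bp upstream, or the nearest start site within 2000 bp, gave 13, adding unc-97 and sca-1. The 6 genes with an intronic peak became 3 (7.32%) in the conservative list over a background of 5.61%. They became 2 (4.88%) over 4.39% without replicate 1 and 5 (12.2%) over 5.59% without replicate 2. Under the 2 overlap rules they became 0 over 4.07% and 3.83%, and for the 1000 strongest peaks 0 over 0.951%. In the ranked list there were 17 over 23.3%. Outside the promoter windows of the same gene there were 3 (7.32%) over 4.60%. Leaving out peaks that overlap a stronger one, a choice made after seeing the data, gave 10 promoter genes (unc-22 was lost) and 6 intronic ones. The backgrounds were 19.1% and 6.05%. Leaving out summits within 200 bp of a tRNA gene, also chosen after seeing the data, gave 11 and 5 (unc-68 was lost). The backgrounds there were 18.7% and 5.51%. Of the 21 summits, 3 overlapped both replicates over at least 0.5 of the peak. Fewer peaks enter most of these counts, and the backgrounds moved with them. No paired analysis was possible because there is 1 group.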
